A study of Mus musculus with 9 samples.

Results

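Absorption of dietary sugar by the jejunum was followed through 7 genes chosen by name for their known roles: Slc5a1, Slc2a2, Slc2a5, Khk, Pck1, G6pc and Fbp1. The choice was made with earlier results of these data known. The genes were found as the rows of the array files whose gene symbol equals the name, and each had 1 probe. Thus 7 of the 15674 genes with a symbol on the arrays are described. All 7 were among the 9652 genes that could be tested. The arrays carried jejunal RNA from males of the outbred OF1 mouse stock, killed at an age of 7 weeks, with 1 mouse per array. All mice belonged to the third generation kept on the same feed, with 3 mice on feed B (numbers 7, 8 and 10), 3 on feed K (1, 3 and 4) and 3 on feed G (4, 8 and 11). The meaning of the letters is not given, which of the feeds was a custom maize diet is not known, and no feed is named as the control. The tissue was a short piece of jejunum cut around the middle of the small intestine, and the whole wall was used. With such bulk tissue, fewer cells of a type and less RNA per cell cannot be told apart. The labels give feed without restriction, whereas the methods describe a few hours without feed before sampling, and the time of day of sampling was not randomised and is not given.

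Glucose and galactose enter the absorptive cell, the enterocyte, across the brush border by the sodium-coupled transporter SGLT1, which Slc5a1 encodes. Fructose enters by the facilitative transporter GLUT5, the product of Slc2a5, and all these sugars leave towards the blood through GLUT2, the product of Slc2a2. The sodium pump of the basolateral membrane keeps up the gradient that drives SGLT1. Inside the cell ketohexokinase, encoded by Khk, phosphorylates fructose, and the trioses made from the product can be turned into glucose. Pck1 and Fbp1 encode enzymes of gluconeogenesis, and G6pc encodes the catalytic subunit of glucose-6-phosphatase, which releases free glucose. Genes for fructose handling are known to be induced by fructose, and these transporters are known to be more abundant in the upper than in the lower small intestine.

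The groups and arrays set limits on all values below. Detection of a probe was set at a ratio of signal to noise of at least 3, which held for 33.7% to 43.6% of probes on the arrays of feed B, 41.2% to 47.6% on feed K and 46.4% to 48.1% on feed G. All 7 genes were detected on all 9 arrays except G6pc, which was detected on 8. Values are log2 of the quantile-normalized signal, which can be compared between mice for a gene but not between genes. The 8 matched enterocyte markers, among them Vil1, Fabp2 and Apoa1, were detected on all 9 arrays, as a jejunal sample should show. Of the 8 hepatocyte markers, cells that also express several of these genes, Ttr was detected on 9 arrays, Cyp2e1 on 8, Alb and Serpina1a on 5 each, Apoh, Ahsg and Fgb on 1 each and Tat on none. The 3 matched kidney proximal tubule markers, Slc34a1 among them, were detected on at most 1 array. The ileum markers Fabp6, an intracellular bile acid carrier, and Slc10a2, the bile acid transporter of the distal small intestine, varied widely between mice and are taken up below.

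Slc5a1 and G6pc were the members whose feeds stood apart, and they did so in opposite directions. The signal of Slc5a1 was lower in every mouse of feed B than in every mouse of feeds K and G, whereas that of G6pc was higher in every mouse of feed B than in every other mouse. For Slc2a5 and Slc2a2 all mice of feed K lay above all mice of feed B, while feed G overlapped both. Khk, Pck1 and Fbp1 overlapped between all feeds. None of these differences passed the limma test adjusted over all genes.

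**Figure D1:**
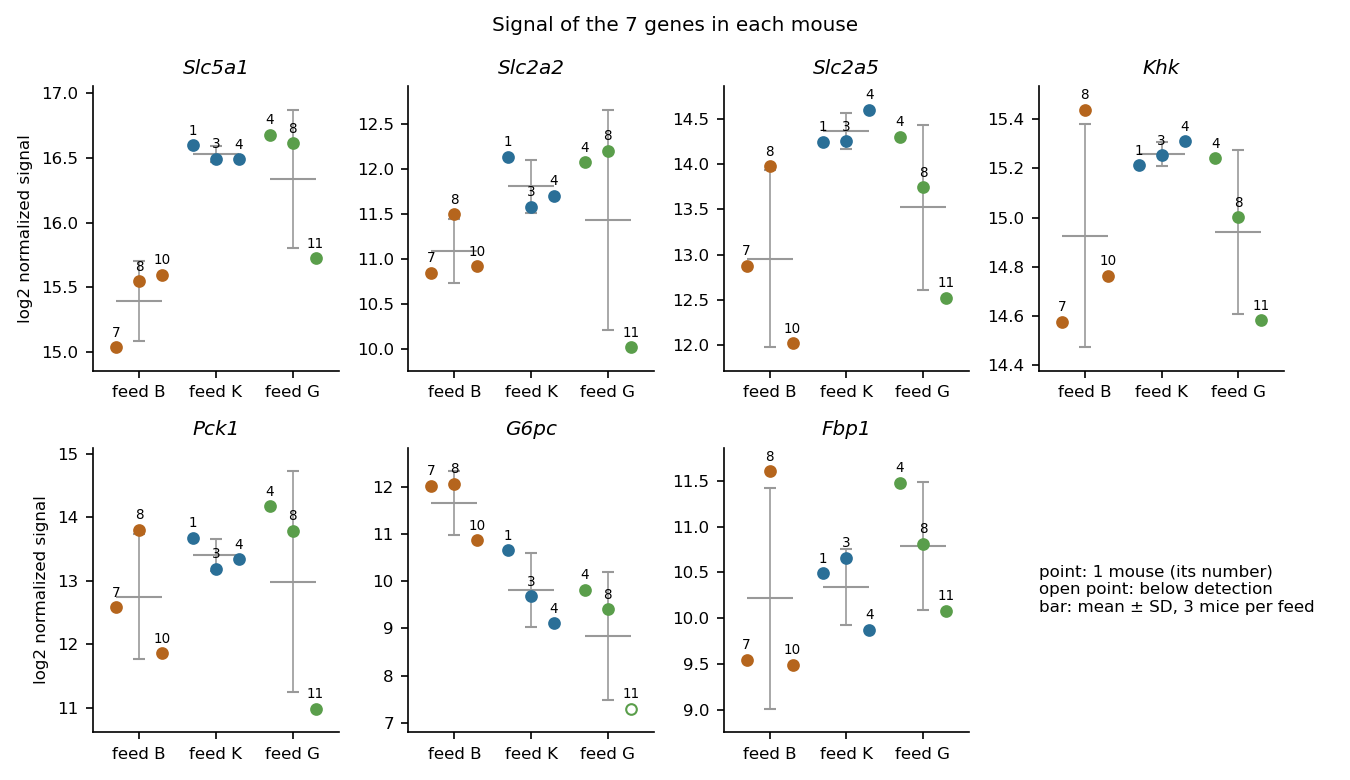
Log2 normalized signal (vertical axes) of the 7 genes in the 3 mice of each feed (horizontal axes), with 1 point per mouse marked by its number, an open point below detection, and grey bars for the mean ± SD. Slc5a1 is lowest and G6pc highest on feed B, and mouse 11 of feed G is the lowest of its feed in all 7 panels.

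The promoters of the pair of genes that separated feed B in opposite directions, Slc5a1 and G6pc, are printed with that of Pck1, the member with the strongest negative relation to the ileum markers. They are taken from RefSeq on GRCm38.p6 and run from 250 bases before to 50 bases after the annotated start, all on the plus strand. Slc5a1 lies at chr5:33103969-33104268, G6pc at chr11:101367466-101367765 and Pck1 at chr2:173152823-173153122. Capitals mark any match, on either strand, to 7 short motifs: the E-box CACGTG, the TATA box TATAAA, the cAMP response element TGACGTCA and its shorter core ACGTCA, which it contains, the hepatocyte nuclear factor type GTTAAT, the GC box GGGCGG, and the D-box TTATGTAA.
Slc5a1: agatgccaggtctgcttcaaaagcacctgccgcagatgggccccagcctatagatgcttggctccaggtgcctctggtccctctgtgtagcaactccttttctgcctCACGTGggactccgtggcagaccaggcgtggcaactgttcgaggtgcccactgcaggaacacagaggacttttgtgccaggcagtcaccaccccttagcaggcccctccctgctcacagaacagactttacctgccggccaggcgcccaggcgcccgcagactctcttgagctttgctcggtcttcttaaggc
G6pc: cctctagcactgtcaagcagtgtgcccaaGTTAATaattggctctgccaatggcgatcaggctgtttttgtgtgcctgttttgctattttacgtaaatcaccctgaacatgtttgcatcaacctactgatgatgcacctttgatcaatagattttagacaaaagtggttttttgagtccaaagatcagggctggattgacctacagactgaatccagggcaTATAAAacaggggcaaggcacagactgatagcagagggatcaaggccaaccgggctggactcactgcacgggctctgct
Pck1: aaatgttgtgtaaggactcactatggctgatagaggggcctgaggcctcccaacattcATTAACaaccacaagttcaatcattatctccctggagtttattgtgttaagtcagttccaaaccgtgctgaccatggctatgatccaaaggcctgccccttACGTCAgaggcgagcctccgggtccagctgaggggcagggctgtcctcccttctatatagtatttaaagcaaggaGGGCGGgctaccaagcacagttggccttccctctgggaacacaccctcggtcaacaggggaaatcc
The Slc5a1 window held the E-box 143 bases before the start, a motif found in 7.17% of the 32544 distinct promoters of the same length. G6pc held the TATA box 29 bases before the start (13.6% of promoters) and GTTAAT at 221 bases before it (7.13%). Pck1 held ACGTCA at 91 bases before the start (7.55% of promoters), GTTAAT on the other strand at 192 bases and the GC box at 16 bases (35.9%). The D-box and the full cAMP response element, found in 0.931% and 1.80% of promoters, were in none of the 7 windows. These matches are descriptions of letters and were not tied to the signals by any test.

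Slc5a1 encodes SGLT1 and lies at chr5:33104219-33162699 on GRCm38.p6. On feed B its log2 signal was 15.03, 15.54 and 15.59 in mice 7, 8 and 10. On feed K it was 16.60, 16.49 and 16.49 in mice 1, 3 and 4, and on feed G it was 16.68, 16.62 and 15.72 in mice 4, 8 and 11. Feed B thus lay below both other feeds without overlap, with mouse 11 of feed G only just above it. Feed B had a mean of 15.39 ± 0.31 (SD, n = 3). The mean was 16.53 ± 0.06 (SD, n = 3) for feed K, and feed G gave 16.34 ± 0.53 (SD, n = 3). The mice of feed K were almost alike, with a 1.08-fold range. Signal was 2.20-fold higher on feed K than on feed B, a log2 difference of 1.14 (standard error 0.29, 95% interval 0.47 to 1.80), and the limma p was 0.00417 before and 0.753 after adjustment over all genes tested. Feed G lay 0.95 above feed B (standard error 0.29, interval 0.28 to 1.61; limma adjusted p = 0.729). Feeds K and G differed by -0.19 (interval -0.85 to 0.48) and could not be ordered beyond their spread.

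Slc2a2 encodes GLUT2 and lies at chr3:28697903-28728361. Its log2 signal was 10.85, 11.50 and 10.92 on feed B, in the order of the mice above. It was 12.13, 11.58 and 11.70 on feed K, and 12.07, 12.20 and 10.02 on feed G. All mice of feed K exceeded all mice of feed B, but feed G held both the highest mouse, 8, and the lowest, 11. Means were 11.09 ± 0.36 (SD, n = 3), 11.80 ± 0.29 (SD, n = 3) and 11.43 ± 1.22 (SD, n = 3) on feeds B, K and G. The difference between feeds K and B was 0.72 (standard error 0.55, interval -0.54 to 1.97; limma adjusted p = 0.869), and that between feeds G and B was 0.34 (interval -0.91 to 1.59; limma adjusted p = 0.937). Without mouse 11 the difference between feeds G and B was 1.04, and that between feeds G and K turned from -0.37 to 0.33.

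Slc2a5 encodes the fructose transporter GLUT5 and lies at chr4:150119344-150144168. On feed B its log2 signal was 12.88, 13.97 and 12.02. Feed K gave 14.24, 14.25 and 14.60, and feed G gave 14.30, 13.75 and 12.53. The 3 mice of feed K were close together and above all of feed B, whereas the mice of feed B spread over a 3.86-fold range and those of feed G over a 3.42-fold range. Its means were 12.96 ± 0.98 (SD, n = 3), 14.36 ± 0.20 (SD, n = 3) and 13.53 ± 0.91 (SD, n = 3) on feeds B, K and G. Feed K exceeded feed B 2.65-fold, by 1.41 on the log2 scale (standard error 0.56, interval 0.12 to 2.70), with a limma p of 0.0361 that was 0.786 after adjustment. Feed G lay 0.57 above feed B (interval -0.72 to 1.86; limma adjusted p = 0.902), 0.10 above it without mouse 10 of feed B, and 1.06 above it without mouse 11 of feed G.

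Khk encodes ketohexokinase and lies at chr5:30921436-30931248. It was the steadiest of the 7 genes, with an SD of 0.33 over the 9 mice and a 1.82-fold range. The log2 signal was 14.58, 15.44 and 14.76 on feed B, 15.21, 15.25 and 15.31 on feed K, and 15.24, 15.00 and 14.58 on feed G. The highest and the lowest mouse were both on feed B, so the feeds overlapped. The mean on feed K exceeded that on feed B by 0.33 (interval -0.29 to 0.96; limma adjusted p = 0.877), and feeds G and B differed by 0.02 (interval -0.61 to 0.64; limma adjusted p = 0.991).

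Pck1 encodes the cytosolic phosphoenolpyruvate carboxykinase and lies at chr2:173153073-173159274. Its log2 signal was 12.58, 13.81 and 11.85 on feed B, 13.68, 13.19 and 13.34 on feed K, and 14.18, 13.79 and 10.98 on feed G. Mice 4 and 11, both on feed G, were the highest and the lowest of all 9, a 9.15-fold range within a single feed. The difference between feeds K and B was 0.66 (standard error 0.83, interval -1.24 to 2.55; limma adjusted p = 0.940). Between feeds G and B it was 0.24 (interval -1.66 to 2.13; limma adjusted p = 0.974), and 1.23 without mouse 11.

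G6pc encodes the catalytic subunit of glucose-6-phosphatase and lies at chr11:101367716-101377903. Its log2 signal was 12.02, 12.06 and 10.87 on feed B. It was 10.66, 9.68 and 9.11 on feed K, and 9.82, 9.41 and 7.30 on feed G, where the value of mouse 11 came from an array on which the probe was not detected (signal-to-noise ratio 1.92). All of feed B lay above all other mice, with mouse 10 (10.87) only just above mouse 1 of feed K (10.66). Feeds K and G overlapped. By feed, in the order B, K and G, the means were 11.65 ± 0.68, 9.81 ± 0.78 and 8.84 ± 1.35 (SD, n = 3 each). Feed K minus feed B was -1.84 (standard error 0.70, interval -3.44 to -0.23), 3.57-fold lower signal, with a limma p of 0.0298 that was 0.784 after adjustment. Feed G minus feed B was -2.81 (standard error 0.70, interval -4.42 to -1.20), 7.01-fold lower signal, with a limma p of 0.00366 that was 0.472 after adjustment. Without mouse 11 the latter was -2.04. Over the 8 arrays on which the probe was detected the range was 7.76-fold.

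Fbp1 encodes fructose-1,6-bisphosphatase and lies on the minus strand at chr13:62864753-62888298. The log2 signal was 9.55, 11.61 and 9.49 on feed B, 10.50, 10.66 and 9.87 on feed K, and 11.48, 10.81 and 10.08 on feed G. Mouse 8 of feed B was the highest and mouse 10 of the same feed the lowest. Feed K minus feed B was 0.13 (interval -1.26 to 1.51; limma adjusted p = 0.984). Between feeds G and B the difference was 0.58 (interval -0.81 to 1.96; limma adjusted p = 0.908).

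Across the members, 0 of 7 passed an adjusted p of 0.05 in limma for the effect of feed or for any pair of feeds, and the background over all genes tested was likewise 0% in each of these 4 tests. Median scaling in place of quantile normalization put the median log2 difference of all genes at 0.41 for feed K and 0.53 for feed G against feed B, and shifted the differences of all 7 members upwards too, that of G6pc towards 0, with 0 calls. Before adjustment, 2 of 7 members, Slc5a1 and G6pc, had p below 0.05 for the effect of feed, against 5.37% of all genes tested. For feed K minus feed B these were 3 of 7 (Slc5a1, Slc2a5 and G6pc) against 6.31%, for feed G minus feed B 2 of 7 against 5.74%, and for feed G minus feed K 0 of 7 against 4.54%. Feeds K and B did not overlap for 4 of 7 members, against 9.94% of the 9556 tested genes with a value on every array. Feeds G and B did not overlap for 2 of 7 members (10.9% of genes), and feeds G and K for 0 of 7 (13.7%). The members were chosen with earlier results of these data known, so their shares beside those of all genes are a description only. The counts without overlap moved with single mice and with the scaling. Without mouse 8 of feed B they were 7 for feeds K and B and 3 for feeds G and B, and without mouse 11 of feed G they were 3 for feeds G and B and 3 for feeds G and K. Feeds G and K gave 2 without mouse 4 of feed G, 1 without mouse 1 of feed K and 1 in the series table. With median scaling in place of quantile normalization, 5 members did not overlap between feeds K and B and 3 between feeds G and B. The comparisons with feed B share its 3 mice. With 3 mice against 3 the exact permutation test over 20 splits cannot give a two-sided p below 0.1, the value it gave for Slc5a1 and G6pc in both comparisons with feed B. Over the 3 feeds, the exact permutation test with 280 splits gave p = 0.0357 for Slc5a1 and p = 0.025 for G6pc, and adjusted over all genes 0.860 and 0.856.

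**Figure D2:**
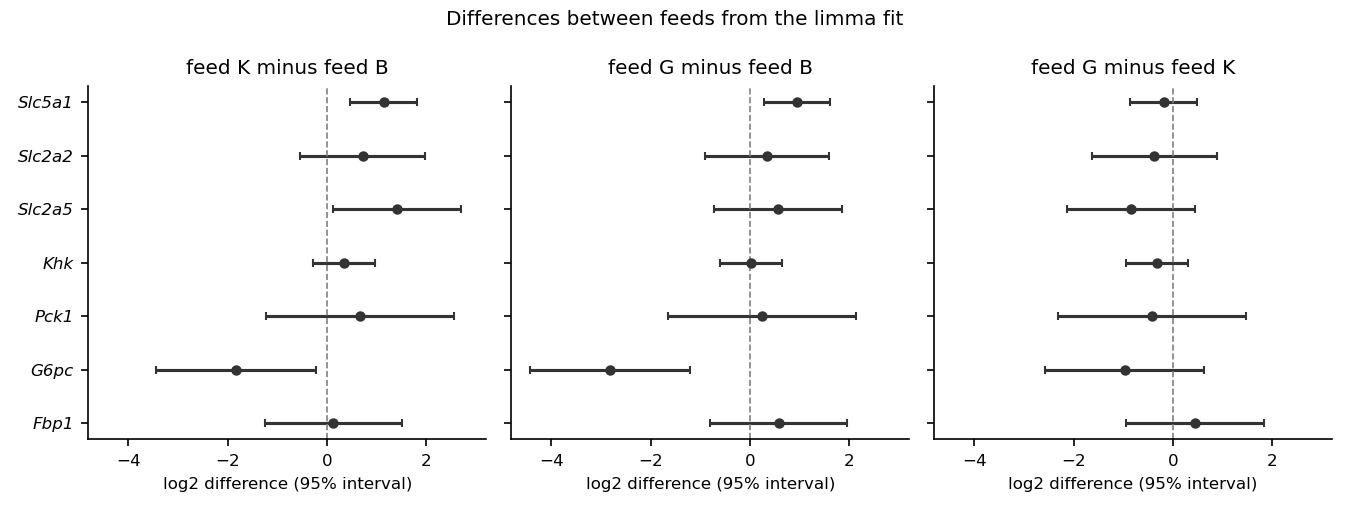
Log2 differences between feeds (horizontal axes) with 95% intervals from the limma fit for the 7 genes (vertical axis), in 3 panels for the 3 pairs of feeds. In both comparisons with feed B the interval of Slc5a1 lies above 0 and that of G6pc below 0, and every interval of feed G minus feed K includes 0.

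Over the 9 mice the sugar genes other than Khk varied more than most genes. The median SD of log2 signal over the 9 mice was 0.77 for the 7 members, from 0.33 for Khk to 1.50 for G6pc with its undetected value included, against 0.42 over the 9556 genes. A range of at most 2-fold held for 1 of 7 members and for 37.5% of the genes. Within feeds, the median SD was 0.78 for the members and 0.41 for the genes, and the share of a gene's variation that lay between mice on the same feed differed among members. This share was 25.7% for Slc5a1 and 32.2% for G6pc, and between 54.8% (Slc2a5) and 92.4% (Pck1) for the other 5.

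Over the 15 pairs of the 6 genes detected on all 9 arrays, Pearson r was above 0 in all 15 and ran from 0.42 to 0.94 with a median of 0.72. Over all pairs of the 5887 genes detected on every array the median r was 0.02, with 52.0% of pairs above 0 and 3.41% at 0.72 or more. By exact permutation, 7 of the 15 pairs had a p below 0.05 after adjustment over the 15 pairs for Pearson r, and 0 of 15 for Spearman rho. The count of 7 depended on single mice: it was 1 without mouse 7 or mouse 10 of feed B, mouse 1 of feed K or mouse 4 of feed G, 3 without mouse 11 of feed G, 4 without mouse 3 of feed K, and 11 without mouse 8 of feed B. The closest pair was Slc2a2 and Pck1, the glucose exit and the gluconeogenic enzyme (r = 0.94, exact p = 0.000653, adjusted 0.00980; rho = 0.73, exact p = 0.0311, adjusted 0.117; n = 9). With feed means subtracted r was again 0.94, and without mouse 7 of feed B and mouse 11 of feed G, those farthest from the median of Slc2a2, it was 0.85. Slc2a5 and Khk, which act in sequence on fructose, followed with r = 0.87 (exact p = 0.00579, adjusted 0.0319; rho = 0.75, exact p = 0.0255, adjusted 0.117), 0.87 with feed means subtracted, and 0.88 without mouse 10 of feed B and mouse 11 of feed G. The pair Slc2a2 and Khk went from 0.75 to 0.35 without the 2 farthest mice, and thus rested on them. G6pc stood outside this pattern over all mice: in its 6 pairs r ran from -0.44 with Slc5a1 to 0.37 with Pck1. With feed means subtracted G6pc had r = 0.89 with Pck1 and 0.86 with Slc2a2, values that include mouse 11 of feed G, where G6pc was not detected. Without feed means subtracted and without the 2 farthest mice, mouse 11 among them, r was -0.31 with Pck1 and -0.42 with Slc2a2.

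Likeness was also read against the other 5886 genes detected on all 9 arrays, as a description over 9 mice. Pck1 ranked 2 among the genes most like Slc2a2, after 1700012B15Rik (r = 0.97) and before Ppargc1a, a coactivator of gluconeogenic genes that shares its probe label with A830037N07Rik (r = 0.92). The nearest to Pck1 were Slc37a4, which encodes the transporter that brings glucose-6-phosphate to glucose-6-phosphatase (r = 0.97), Pipox (r = 0.95) and Slc27a2 (r = 0.94). Among the nearest to Khk were Dhrs1 (r = 0.97) and 1700108L22Rik (r = 0.96). Slc5a1 was most like Tmem14c (r = 0.98), Atp1b1, the beta subunit of the sodium pump (r = 0.97), and 3110048E14Rik (r = 0.96). For Slc2a5 these were Tpst2 (r = 0.97), Afmid (r = 0.96) and Osbpl6 (r = 0.94), and for Fbp1 they included Zfyve21 (r = 0.95) and Srrm2 (r = 0.94). Fbp1 ranked between 344 and 1003 when the genes were ordered by their likeness to each of the other members.

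**Figure D3:**
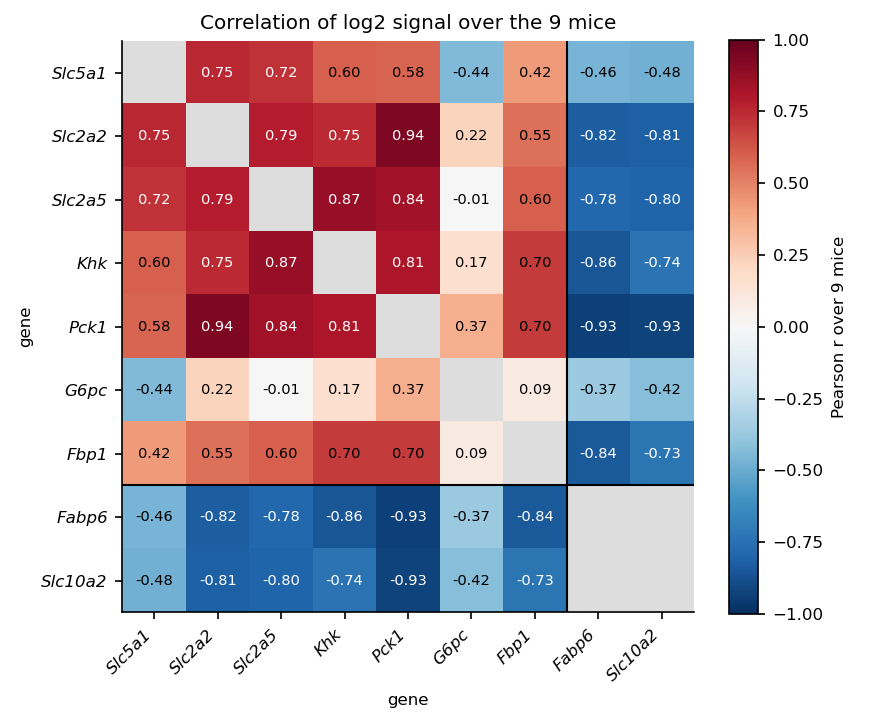
Pearson r of log2 signal over the 9 mice for each pair of the 7 genes, and for each with the ileum markers Fabp6 and Slc10a2 (both axes list genes, colour and number give r, grey cells were not computed). All pairs without G6pc are positive, and G6pc is near 0 or negative with Slc2a5 and Slc5a1. With both ileum markers r is below 0 for every member, though Slc5a1 and G6pc did not pass after adjustment.

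Over the 9 mice both ileum markers moved against the members, a relation that passed adjustment by Pearson r for 5 of 7. Fabp6 was detected on 8 of the 9 arrays and differed widely between mice. Its log2 signal was 15.81, 4.67 and 17.84 on feed B, 8.92, 12.19 and 11.81 on feed K, and 8.10, 8.96 and 19.51 on feed G, and the value of mouse 8 of feed B was not detected. Slc10a2 was likewise highest in mouse 11 of feed G (12.66) and mouse 10 of feed B (12.05), but it was detected on only 6 of the 9 arrays, 2 per feed. The mice with the most Fabp6, 11 of feed G and 10 and 7 of feed B, were the lowest 3 of 9 for Slc2a2, Slc2a5, Khk and Pck1. This was not particular to the members. The same mice were the lowest 3 for the hexose transporters Slc5a4a and Slc5a4b and for the enterocyte marker Fabp1. The enterocyte marker Fabp2, by contrast, was highest in mouse 11 of feed G (20.79). For Pck1 and Fabp6, r was -0.93 (exact p = 6.34e-05, adjusted over 14 relations 0.000887) and rho was -0.97 (exact p = 0.000165, adjusted 0.00231; n = 9), -0.94 with feed means subtracted and -0.98 without mouse 8 of feed B and mouse 11 of feed G.

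Of the other members, r with Fabp6 was -0.86 for Khk, -0.84 for Fbp1, -0.82 for Slc2a2 and -0.78 for Slc2a5, and the adjusted exact p of these 4 lay between 0.0169 and 0.0249. For Spearman rho only Pck1 passed after adjustment. Across the 9555 other genes the median r with Fabp6 was -0.03, and 5.16% of them lay below -0.7, as did 5 of the 7 members. Slc5a1 (r = -0.46, exact p = 0.202, adjusted 0.236) and G6pc (r = -0.37, exact p = 0.324, adjusted 0.324) did not pass. Without mouse 8 of feed B and mouse 11 of feed G their r was -0.87 and 0.59. With feed means subtracted they had r = -0.69 and -0.78 with Fabp6, and -0.60 and -0.94 with Slc10a2. These values of G6pc include mouse 11 of feed G, where it was not detected. With Slc10a2 the same 5 members passed, with r from -0.73 for Fbp1 to -0.93 for Pck1. Without mouse 10 of feed B and mouse 11 of feed G, however, r was -0.34 for Slc2a5 and -0.72 for Pck1. All r with Slc10a2 include arrays on which this marker was not detected. These relations were computed after the values of the ileum markers had been seen.

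**Figure D4:**
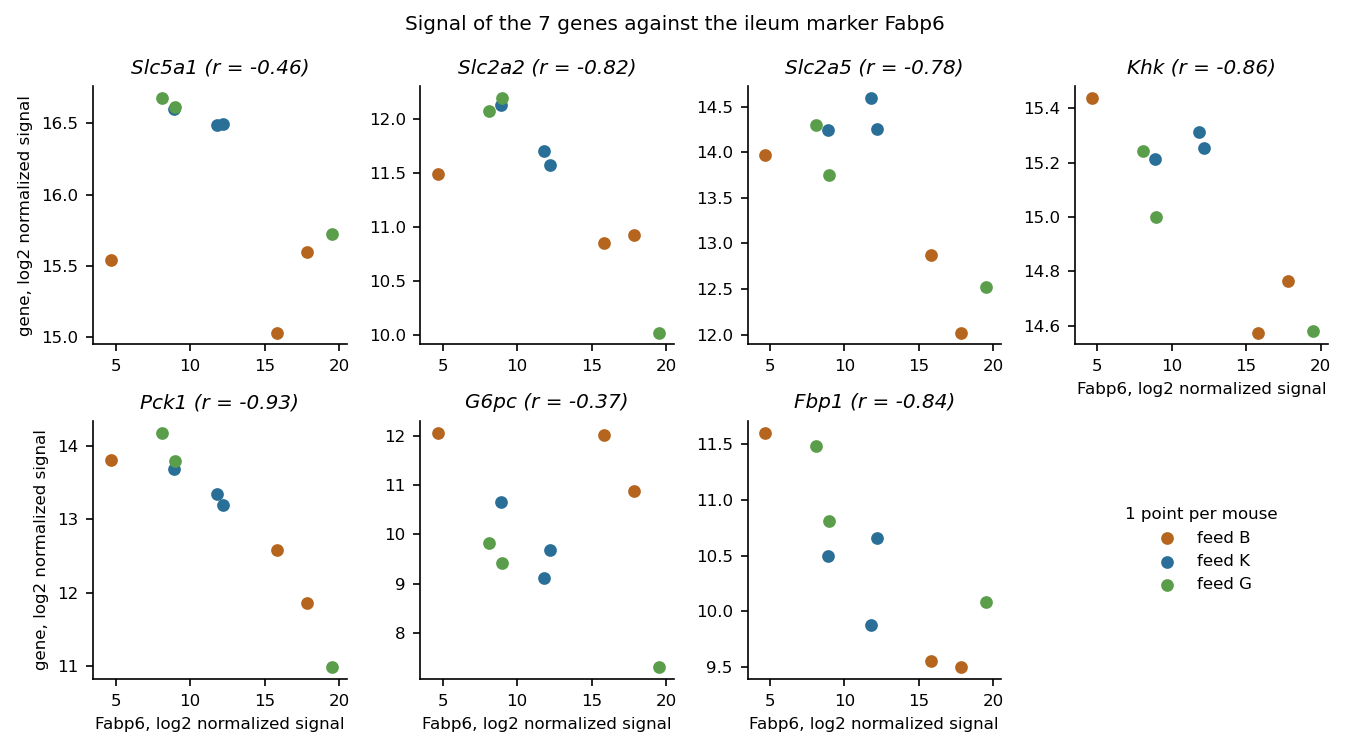
Log2 normalized signal of each of the 7 genes (vertical axes) against that of the ileum marker Fabp6 (horizontal axes), with 1 point per mouse coloured by feed and Pearson r above each panel. Pck1 falls along a line over all 9 mice. All mice of feed B lie below all others for Slc5a1 and above all others for G6pc, though only just for the closest mice. Fabp6 in these mice of feed B ran from 4.67, not detected, to 17.84.

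After a straight line on Fabp6 was taken from each gene, r was lower in all 15 pairs without G6pc, by little in some and by much in others. It went from 0.81 to 0.06 for Khk and Pck1, from 0.70 to -0.42 for Pck1 and Fbp1, from 0.94 to 0.83 for Slc2a2 and Pck1, and from 0.75 to 0.73 for Slc5a1 and Slc2a2. For Slc5a1 and G6pc it went from -0.44 to -0.75. With Fabp6 as a covariate of the limma fit, Slc5a1 was 1.06 higher on feed K than on feed B (standard error 0.25, limma adjusted p = 0.565). For G6pc the difference of feed G from feed B was -2.89 (standard error 0.48, limma adjusted p = 0.370). The difference of Slc2a5 between feeds K and B was 1.17 with the covariate (standard error 0.27, limma adjusted p = 0.565), and that of Pck1 was 0.31 against 0.66 without it. The part of the site of sampling along the gut in these values was not tested.

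Genes of neighbouring steps gave 0 calls in limma after adjustment, in any list or comparison. Of 16 other hexose transporters 13 were matched and 8 tested, and 6 of 8 were higher on feed K than on feed B, with a median difference of 0.66, against 56.9% of all genes tested and a median of 0.05. Between feeds G and B, 5 of 8 were higher with a median of 0.06, against 57.1% of all genes and a median of 0.06. The smallest p for the effect of feed in this list was that of Slc2a8 (limma adjusted p = 0.903). Slc5a4b, a relative of SGLT1, had means of 12.83 ± 0.93, 13.67 ± 0.27 and 12.72 ± 1.11 on feeds B, K and G (SD, n = 3 each), and Slc2a1, the widespread glucose transporter GLUT1, was detected on no array. Slc2a7 was not matched. In fructose and polyol metabolism 11 of 15 genes were tested and none had a p below 0.05 for the effect of feed. Sord, sorbitol dehydrogenase, had the smallest (limma adjusted p = 0.903), and Tkfc, triokinase, differed between feeds K and B by 0.03 (interval -0.71 to 0.76).

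In glucose output, 17 of 19 genes were tested, and the median difference between feeds K and B was 0.16. Got1, the cytosolic aspartate aminotransferase, was at 11.71 ± 0.12 (SD, n = 3) on feed B and 12.32 ± 0.24 (SD, n = 3) on feed K, the smallest p of the list (limma adjusted p over feeds 0.903). Slc37a4, the partner of G6pc, had means of 10.18, 10.32 and 10.23 on feeds B, K and G, and did not share the order of G6pc. Pck2, the mitochondrial carboxykinase, had 10.92, 10.64 and 11.02. Among regulators 16 of 24 genes were tested, and Sgk1, a kinase that acts on transporters, had the smallest p for feed (limma adjusted p = 0.903). Mlxipl, which encodes the carbohydrate response factor ChREBP, had 12.43, 12.67 and 12.57 on feeds B, K and G, and Txnip was not matched.

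Of the 4 sodium pump genes Atp1b1 followed Slc5a1. Its log2 signal was between 15.75 and 16.07 on feed B, 16.57 and 16.65 on feed K, and 16.33 and 16.83 on feed G, so that feed B was again below both others without overlap. It was 0.64 higher on feed K (standard error 0.20, interval 0.18 to 1.10; limma adjusted p = 0.773) and 0.70 higher on feed G (standard error 0.20, interval 0.24 to 1.16; limma adjusted p = 0.698). The 8 enterocyte markers were all higher on feed K than on feed B, with a median difference of 0.31. Over all genes tested 56.9% were higher, with a median of 0.05. On feed G 7 of the 8 were higher than on feed B, with a median of 0.18, against 57.1% and a median of 0.06 over all genes. None of the markers passed an unadjusted limma p of 0.05 in either comparison. The log2 of the summed signal of these markers, to which the brightest add most, ran from 21.31 to 21.98 on feed B. It ran from 21.77 to 21.97 on feed K and from 21.64 to 22.06 on feed G.

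**Figure D5:**
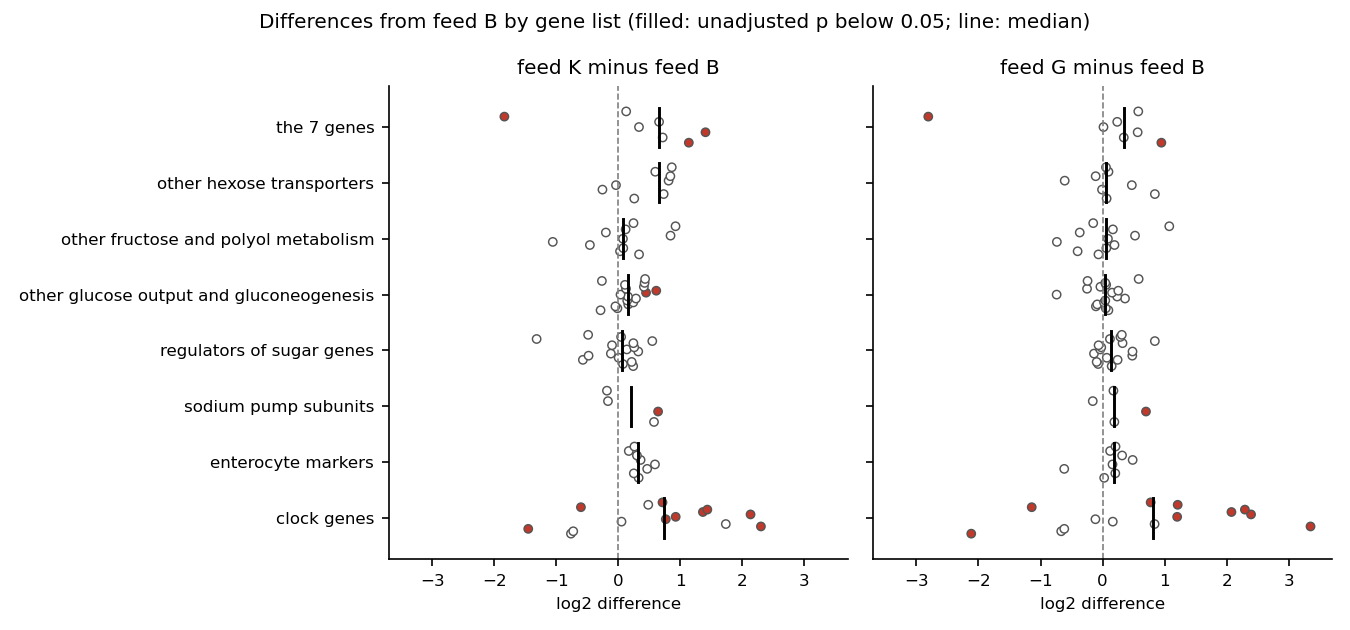
Log2 differences of feeds K and G from feed B (horizontal axes) for the tested genes of each list (vertical axis), with 1 point per gene, filled where the unadjusted limma p is below 0.05, and a line at the median of the list. The 7 genes hold the most negative value on feed G, G6pc at -2.81. Outside the clock genes no list has more than 3 filled points. In each panel 9 of 14 clock genes are filled, against 6.31% of all genes tested for feed K and 5.74% for feed G.

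Clock genes follow the time of day, and Slc5a1 is known to vary with the time of day in the gut. Before adjustment 10 of the 14 tested clock genes had a limma p below 0.05 for the effect of feed, against 5.37% of all genes tested. After adjustment 0 did. Dbp ran from 9.98 to 12.46 on feed B, 12.69 to 13.57 on feed K and 12.73 to 13.99 on feed G. Nfil3 ran from 9.85 to 10.23 on feed B, 9.41 to 9.57 on feed K and 8.77 to 9.02 on feed G. Feed B thus stood apart from both others in Dbp and Nfil3, as it did in Slc5a1 and G6pc. Both clock genes were singled out after their values were seen. Not every clock gene shared this order. Nr1d1 ran from 10.62 to 11.03 on feed B, 11.35 to 12.11 on feed K and 10.65 to 10.89 on feed G. The part of the time of day in the differences of Slc5a1 and G6pc was not tested.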

How the data were processed

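Jejunal RNA of 9 mice was hybridised to 9 single-colour Applied Biosystems arrays, 1 per mouse. The authors deposited for each spot a signal intensity, corrected for background and spatially normalized within the array, a signal-to-noise score and a quality flag. The deposited series table holds linear assay-normalized intensity, identical in all 297108 values to a column of the array tables, and its divisor is not given in the sources used here. The submitters' processing notes also name RMA, with no role.

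After removal of spots whose flag exceeded 5000, quantile normalization (arithmetic mean) was applied to the signals of all 9 arrays, which were then log2 transformed and averaged over probes with 1 symbol field, which gave 15674 genes. Genes detected (signal-to-noise ratio of 3 or more) on at least 3 arrays were fitted in limma 3.58.1 (R 4.3.3; lmFit, eBayes, Benjamini-Hochberg over 9652 genes at 0.05), with intervals at 95%. Python 3.11.15, numpy 2.4.6 and scipy 1.17.1 gave the two-sided exact permutation tests, over 362880 orders for correlations. The fit was tested on simulated data. Samples were grouped by the feed in the labels. The number of arrays limits the precision. The limma p-values set differences against the spread between arrays of the same feed. With 1 array per mouse this spread joins mouse and array.

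The 7 members and all lists were chosen with earlier results of these data known. Named genes are the members, the gene with the smallest p over feeds in each list, genes acting beside a member, and the 3 genes most alike to each member, of which some are not reported here. Nfil3, Dbp and the ileum markers were singled out after their values were seen. Of 174 list entries 151 were matched, 121 by symbol, 25 by RefSeq accession and 5 by synonym (RefSeq, GRCm38.p6). The probes of the 7 members share a RefSeq accession with the gene. Alternatives tried were the series table, median scaling, flagged spots kept, noisy spots dropped, the brightest probe, a floor, other filters and tests, and each array left out in turn. G6pc in the correlations and ileum markers as covariates were added after seeing the data.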

Additional observations from a re-analysis of the deposited data

How the results depend on the processing

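No member passed the adjusted threshold for the effect of feed or any pair of feeds under any alternative run, although G6pc had no value where detection on all 9 arrays was required, and the other sugar genes gave 0 calls throughout. Of all genes, 0 passed in the main analysis. With spots below a signal-to-noise ratio of 1 left out, 3 passed for feed, 3 between feeds G and B and 3 between feeds G and K. With genes detected on all 9 arrays only, 1 passed for feed and 1 between feeds G and B, and with the unmoderated test 1 passed for feed, 1 between feeds G and B and 1 between feeds G and K. Leaving out each array in turn gave 0 to 3 genes for feed, 0 to 10 between feeds K and B, 0 to 3 between feeds G and B and 0 between feeds G and K, and all calls arose without mouse 10 of feed B.

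The count of correlated pairs, 7 of 15, ran from 1 to 11 when an array was left out. Slc2a2 and Pck1 passed each time, with an adjusted exact permutation p between 0.00744 and 0.0387. The median SD of the members then ran from 0.73 to 0.82. With G6pc included, 5 of 21 pairs passed.

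Median scaling moved the median of all genes to 0.41 between feeds K and B and 0.53 between feeds G and B. The values were then 1.47 for Slc5a1, feed K minus feed B, 1.54 for Slc5a1, feed G minus feed B, -1.43 for G6pc, feed K minus feed B, and -2.32 for G6pc, feed G minus feed B, while Slc5a1, feed G minus feed K turned to 0.068. The other members moved up as well, to 1.16 for Slc2a2, feed K minus feed B, 1.80 for Slc2a5, feed K minus feed B, 0.65 for Khk, feed K minus feed B, 1.08 for Pck1, feed K minus feed B, and 0.51 for Fbp1, feed K minus feed B. On the side of feed G they came to 0.89 for Slc2a2, feed G minus feed B, 1.10 for Slc2a5, feed G minus feed B, 0.57 for Khk, feed G minus feed B, 0.76 for Pck1, feed G minus feed B, and 1.10 for Fbp1, feed G minus feed B. With Fabp6 as a covariate, feed K minus feed B of Fbp1 turned to -0.12 and feed G minus feed B of Khk to -0.016. With Slc10a2 these were -0.24 and -0.016, and feed G minus feed K of Pck1 turned to 0.017. When arrays were left out, feed K minus feed B of Fbp1 ran from -0.23 to 0.82. Feed G minus feed B ran from -0.16 to 0.27 for Khk, -0.36 to 1.23 for Pck1 and -0.043 to 1.04 for Slc2a2. Feed G minus feed K ran from -0.36 to 0.12 for Slc5a1, -0.76 to 0.33 for Slc2a2 and -1.02 to 0.58 for Pck1. The cause of these turns was not tested, and none passed the threshold. Slc5a1 and G6pc kept their direction against feed B in every alternative.

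No paired analysis was possible because the groups compared share fewer than 2 replicate numbers. A batch as a block was not run, since no batch holding more than 1 array is given. Each member had 1 probe, so agreement of probes could not be computed, and the proteins of Slc2a2 and Slc2a5 were not compared.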
